A study of Mus musculus with 2 samples.

Results

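The Ikaros family consists of 5 genes, Ikzf1 to Ikzf5, which encode the zinc finger transcription factors Ikaros, Helios, Aiolos, Eos and Pegasus. They were taken by gene symbol, and every peak of the deposited Sox4 peak list that named 1 of them was collected. This gave 6 of the 8730 peaks, and 4 of the 5 members were named at least once. The family was set against the 20953 protein-coding genes examined. The series holds 1 library of Sox4 bioChIP, in which biotin-tagged Sox4 is pulled down with its chromatin on streptavidin beads, and 1 library of input chromatin. Both came from C57BL/6 progenitor B cells of embryonic fetal liver, immortalized with p190 Bcr-Abl. The cells of both libraries carried the same retroviral constructs (BAP-Sox4, SE-Cre, p190 Bcr-Abl and the biotin ligase BirA), so the factor mapped was the introduced tagged Sox4. With 1 library of each kind, no value below has a replicate, and no test between conditions was made.

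Ikaros factors bind DNA through zinc fingers near their N terminus and pair with each other through a second set at the C terminus. Ikaros and Aiolos act in sequence in the B lineage, where they shut down the surrogate light chain and proliferation genes of early precursors and promote the step to small pre-B cells. In human leukaemia, loss of IKZF1 is a frequent companion of the BCR-ABL1 fusion. Helios and Eos are best known from regulatory T cells, and Pegasus is the most distant relative in sequence and in the DNA it binds. Sox4, an HMG-box factor, is itself needed for early B-cell development.

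For each peak the list gives a tag number, which is the count of reads in the peak, a fold over the background that the peak caller expected, and a score, read as -10 times the log10 of the peak's p-value. These are the authors' values and rank peaks within this list only. Over all peaks the tag number ran from 25 to 5070 with a median of 71, the median fold was 4.43 and the median score 104.9. Intervals on tag numbers are exact Poisson 95% intervals, which cover counting error only. Library depth was not given in the sources used here. The label of the cells could not be checked against marker expression, since only peaks were analysed.

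The members fell into different classes. A promoter peak, with its interval within 5 kb of a listed start (TSS), was found at Ikzf1 and Ikzf5, which is 2 of 5 genes (exact 95% interval 5.27 to 85.3%), beside 32.8% of all protein-coding genes. Ikzf3 had no promoter peak but a strong intronic one and a pair of peaks with low folds past its end. Ikzf4 was named only for a peak past its end, at the start of Rps26. Ikzf2 was not listed. Any listed peak, which means one inside the gene or up to 25 kb outside it, was thus present for 4 of 5 members, beside 48.9% of all genes. A member was the closest gene of a peak in 3 of 5 cases, beside 30.7%. The interval of a count over 5 genes is wide: 28.4 to 99.5% for any listed peak and 14.7 to 94.7% for the closest gene. Each of these intervals, and that of the promoter count, contains its background share.

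**Figure D1:**
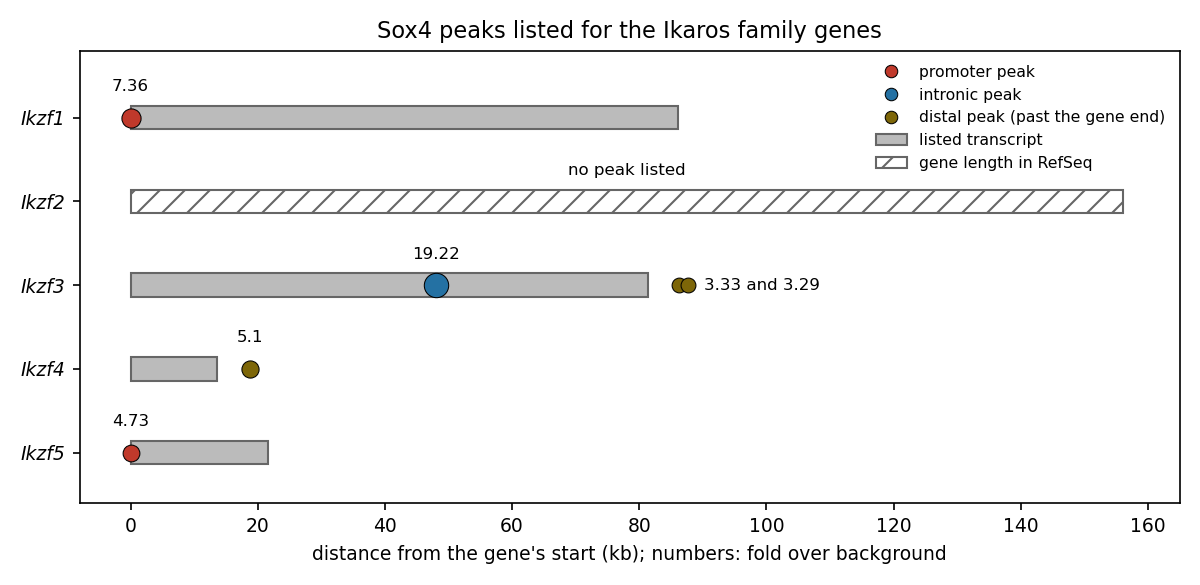
Sox4 peaks of the 5 Ikaros family genes, drawn by distance from the gene's start in kb, with the fold of each peak printed beside it and the point size growing with the fold. Grey bars are the listed transcripts and the hatched bar is the RefSeq length of Ikzf2, which had no peak; the intronic Ikzf3 peak, with a fold of 19.22, lay 48.0 kb inside its gene.

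Ikzf1 encodes Ikaros, the founding member and a factor of lymphoid development. It had a single peak, which covered the start of both listed transcripts (NM_001025597 and NM_009578). The peak ran on chromosome 11 from 11585627 to 11586768 (mm9), 1141 bp, with its summit at 11586201. It held 120 tags (99.5 to 143) at 7.36-fold over background, and its score was 300.3. Its score was higher than that of 89.4% of all peaks and of 87.7% of the 6171 promoter peaks. By fold it stood above 90.8% of all peaks, by tags above 83.1% and by tags per kb of peak width (105, against a median of 75.8 for all peaks) above 91.5%. The peak was therefore in the upper part of the list by each of these 4 measures. No further peak was listed over the remaining 86.2 kb of the gene or within 25 kb of its ends. The nearest peaks on either side lay 121 kb away, with no gene listed, and 122 kb away at the start of Fignl1.

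RefSeq gives Ikzf1 a pair of start windows (build GRCm38.p6, 250 bases before to 50 after a start, plus strand), which lie 4252 bp apart. They are shown because Ikzf1 is the member with the stronger promoter peak, and because they differ in composition. The peak list is in mm9, so the windows could not be placed on it by position. The start of the first window lies 87005 bp from the end of the gene in RefSeq and that of the second 82753 bp, while the mm9 peak spans distances of 86161 to 87302 bp from the listed gene end. If the gene ends at the same point in both annotations, the peak covers the first start and not the second. Capitals mark the letters CTTTGT, which are ACAAAG read on the opposite strand, a core that HMG-box factors of the SOX and TCF families bind.
Ikzf1 first start, chr11:11685675-11685974: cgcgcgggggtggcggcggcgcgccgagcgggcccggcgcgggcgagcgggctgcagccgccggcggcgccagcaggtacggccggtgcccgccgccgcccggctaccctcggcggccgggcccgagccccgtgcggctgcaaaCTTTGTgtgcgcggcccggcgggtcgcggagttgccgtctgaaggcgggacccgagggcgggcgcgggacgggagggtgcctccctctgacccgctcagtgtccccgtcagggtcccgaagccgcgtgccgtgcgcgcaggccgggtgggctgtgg
Ikzf1 second start, chr11:11689927-11690226: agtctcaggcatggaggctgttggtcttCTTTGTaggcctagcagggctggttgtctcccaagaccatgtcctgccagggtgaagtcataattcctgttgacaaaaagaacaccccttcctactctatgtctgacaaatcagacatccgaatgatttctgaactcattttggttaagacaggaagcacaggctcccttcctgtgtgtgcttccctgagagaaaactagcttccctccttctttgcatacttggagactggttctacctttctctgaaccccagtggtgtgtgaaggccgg
The first window held 52 CpG dinucleotides and 81.3% G and C, and 99.4% of the 32851 promoter windows in the RefSeq table held fewer CpG. The second held 2 CpG and 49.0% G and C, beside a median of 7 CpG and 52.7% over all windows. Each window held the ACAAAG core once, 106 bases before the first start and 222 bases before the second. That core occurs, on either strand, in 18.7% of all promoter windows of this length. Neither window held AACAAT, the other HMG-box core searched (10.7% of windows), or TGGGAA, the core that Ikaros factors bind (25.6%). A match to 6 letters is a description of the sequence and does not show where Sox4 lay in the peak.

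Ikzf3 encodes Aiolos, the member most typical of B cells, and carried the strongest peak of the family. The peak lay in an intron of NM_011771 on chromosome 11 from 98358278 to 98359296 (mm9), with its summit at 98358803. It began 48049 bp past the start, 59.1% of the way along a transcript of 81.3 kb, and 32272 bp before the end. It held 176 tags (151 to 204) at 19.22-fold over background, and its score was 752.2. No other gene was named for it. Its tag interval did not overlap that of the Ikzf1 promoter peak, and its density of 173 tags per kb was the highest of the 6 peaks. By fold it ranked 99 of 8730 peaks and 13 of the 841 intronic peaks, whose median fold was 4.44. By score it ranked 201 of all peaks and 18 of the intronic ones, and by tags 543 and 25. Only 48 intronic peaks had a fold of 10 or more. A listed peak of that fold was present for 1 of 5 members, beside 3.24% of all protein-coding genes. The distance into the gene was less unusual than the fold, as 254 of the 841 intronic peaks (30.2%) lay farther from the start of their closest gene, with a median of 18.5 kb.

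The remaining Ikzf3 peaks had low folds and lay past the end of the gene, beside Grb7. Their intervals on chromosome 11 ran from 98320300 to 98321092 and from 98318656 to 98319701 (mm9), 599 bp apart and 4915 and 6306 bp past the end of Ikzf3. The nearer peak held 55 tags (41.4 to 71.6; fold 3.29, score 73.83). The farther one held 78 tags (61.7 to 97.3; fold 3.33, score 60.19). By fold they stood above only 8.77% and 9.02% of all peaks, and below the median of 4.08 of the 204 peaks at gene ends. By tags the nearer one stood above 27.3% of all peaks and the farther one above 57.1%, and above 45.6% and 76.5% of the peaks at gene ends, so their standing depended on the measure. The list assigned both to the end of Grb7, an adaptor of receptor tyrosine kinases, which lay closer (3614 and 1970 bp), and also named Erbb2 and Mien1. They were distal peaks of Ikzf3 by distance only. On the start side of Ikzf3 no peak was near: the next peak after the intronic one lay 184 kb away, at the start of the proteasome gene Psmd3, past the Ikzf3 start.

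**Figure D2:**
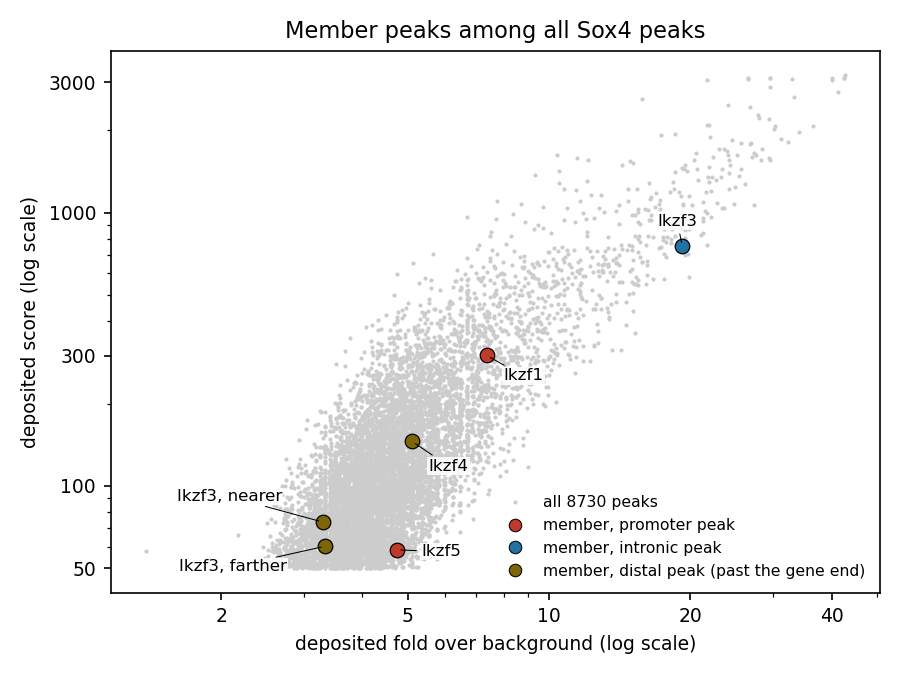
Fold over background against score, both on log axes, for all 8730 Sox4 peaks (grey) and the 6 peaks listed for Ikaros family genes (coloured by position class). The intronic Ikzf3 peak (fold 19.22, score 752.2) and the Ikzf1 promoter peak (fold 7.36, score 300.3) lie above the dense part of the cloud. The Ikzf5 peak has a low score (58.4) at a fold (4.73) above the median of 4.43, and both peaks past the end of Ikzf3 have low folds (3.29 and 3.33).

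Ikzf5 encodes Pegasus, which recognises a DNA sequence of its own. A peak lay over its start (NM_175115) on chromosome 7, between 138553778 and 138554495 in mm9, with its summit at 138554145. The peak held 44 tags (32.0 to 59.1) at 4.73-fold over background, and its score was 58.4. At 717 bp it was the narrowest of the 6. Its tag interval lay wholly below that of the Ikzf1 promoter peak. The score was above that of 11.1% of all peaks and 8.15% of promoter peaks, and not far from the lowest score of the list, 50.03. Its standing depended on the measure: by fold it was above 59.1% of all peaks, by tags above 9.59% and by tags per kb (61.4) above 3.93%. The same interval covered the start of Acadsb, which encodes a mitochondrial acyl-CoA dehydrogenase (NM_025826), so the peak belongs to a shared start region. Of the 5545 promoter peaks that cover a start, 755 (13.6%) cover the starts of more than 1 gene. Pstk, a kinase gene of selenocysteine tRNA synthesis, was also named, 22427 bp past its end.

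The RefSeq start window of Ikzf5 (GRCm38.p6, minus strand) is shown for comparison with the first Ikzf1 window, since both starts were covered by a peak. Its start lies 21829 bp from the far end of the gene, within the 21616 to 22333 bp that the mm9 peak spans from the listed gene end. It has no capitals because none of the cores searched in the Ikzf1 windows occurred on either strand.
Ikzf5 start, chr7:131410429-131410728: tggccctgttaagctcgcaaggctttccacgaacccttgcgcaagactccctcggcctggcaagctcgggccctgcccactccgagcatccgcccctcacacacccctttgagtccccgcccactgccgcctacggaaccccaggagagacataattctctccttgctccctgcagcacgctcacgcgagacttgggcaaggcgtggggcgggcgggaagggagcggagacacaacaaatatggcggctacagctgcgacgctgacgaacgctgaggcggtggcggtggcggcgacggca
This window held 27 CpG and 65.7% G and C, and 84.5% of all windows held fewer CpG. The absence of these letters in 300 bases says nothing of the rest of the peak, which was 717 bp wide.

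Ikzf4 encodes Eos, a partner of Foxp3 in regulatory T cells. It was named for 1 peak, on chromosome 10 from 128063163 to 128064230 (mm9), which held 85 tags (67.9 to 105; fold 5.10, score 145.6). That score was above 67.5% of all peaks. The peak lay 5241 bp past the end of Ikzf4 and 18819 bp from the listed start (NM_011772), and it covered the start of Rps26, a gene of the small ribosomal subunit, which the list names as its closest gene. The peak is thus distal for Ikzf4 and a promoter peak for Rps26. The call of no promoter peak at Ikzf4 rests on the transcript in the list, which spans 13.6 kb. In RefSeq (GRCm38.p6) the gene is 38.8 kb long and lies between Rps26 and Suox. A start at its far end would lie 2.3 kb from the next peak when placed by gene length, or 3.9 kb when placed from the end of Suox, which is within 5 kb either way. That peak covers the start of Suox, the sulfite oxidase gene, with 71 tags (55.5 to 89.6; fold 2.74, score 69.43). The estimate takes lengths to be equal in both builds, and no position was carried from one to the other.

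Ikzf2 encodes Helios and was named for no peak. By the order of genes in RefSeq, it lies with the protein-coding genes Cps1, Erbb4, Spag16 and Vwc2l between Lancl1 and Bard1, the nearest listed genes on either side. The last peak of Lancl1 (56 tags, fold 4.89) and the first of Bard1 (100 tags, fold 4.56) were 4063 kb apart on chromosome 1 (from 67085851 to 71149023 in mm9), and no peak of any class lay between them. The median gap between neighbouring peaks was 67.0 kb, and 73 of the 8710 gaps (0.838%) were longer than this one. Ikzf2 is also the longest of the 5 genes, with 156 kb in RefSeq. Without read coverage of this stretch, the list shows only that no peak passed the caller's threshold there.

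**Figure D3:**
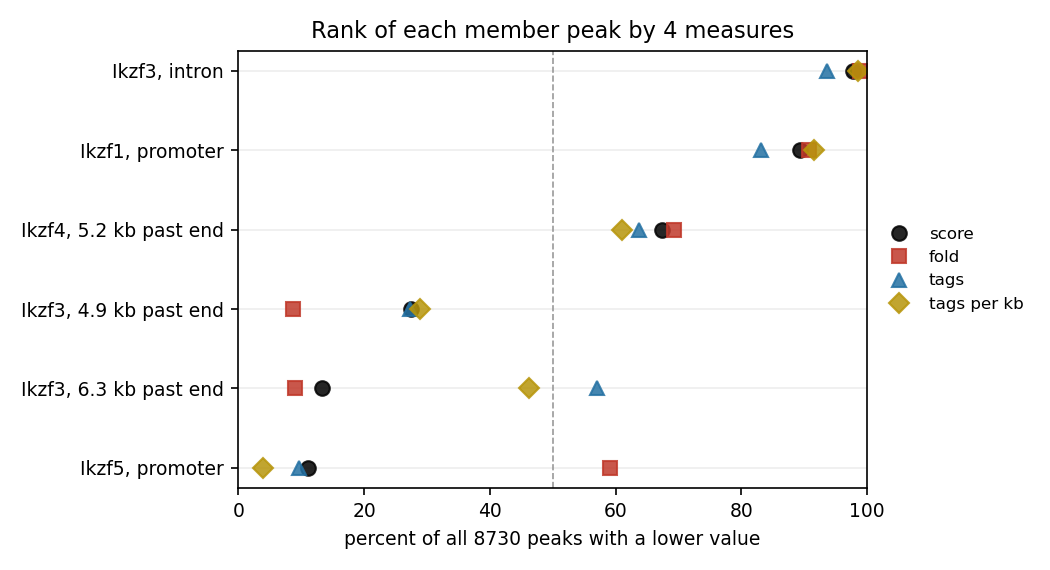
Percent of all 8730 peaks with a lower value than each of the 6 peaks listed for Ikaros family genes, by score, fold, tags and tags per kb, with the dashed line at the middle of the list. The 4 measures lie close together for the intronic Ikzf3 peak, the Ikzf1 promoter peak and the Ikzf4 peak. For the Ikzf5 peak, by contrast, the fold stands at 59.1% and the other measures at 3.93 to 11.1%.

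Proteins that act with the family or are controlled by it were examined through 4 lists. The lists were chosen with earlier results of these data known, so the intervals on their shares do not measure chance. The best promoter peak per gene had a median score of 119.2, a median fold of 4.51 and a median of 78 tags over the 6875 protein-coding genes with such a peak. Ikaros recruits the NuRD, Sin3, CtBP, SWI/SNF and Polycomb complexes. Only a chosen part of their genes was listed, with Smarca4 alone for SWI/SNF and only Ezh2 and Suz12 for Polycomb. Of these 20 genes, 15 had a promoter peak (75.0%, exact 95% interval 50.9 to 91.3%), beside 32.8% of all genes. Their best peaks had a median score of 246.5, a median fold of 4.65 and a median of 158 tags. The highest scores were at Ezh2, the Polycomb methyltransferase (354 tags, fold 10.78), Mbd3, a NuRD subunit (280 tags, fold 15.48), and Ctbp1, a corepressor (202 tags, fold 11.32). Rbbp4, a histone chaperone of NuRD, followed with 215 tags and a fold of 10.43, in a peak whose closest gene was Zbtb8os. Chd4, the remodelling ATPase of NuRD that Ikaros binds, had 130 tags and a fold of 4.12. No peak was listed for Chd3, Mta3, Rbbp7, Gatad2b or Sin3b.

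Genes listed as targets of Ikaros or Aiolos had a promoter peak in 18 of 24 cases (75.0%, 53.3 to 90.2%), with a median score of 134.2 and a median fold of 4.36. Among those with high scores was Cd79a, which encodes a B-cell receptor signalling chain. Its highest-scoring promoter peak lay 4895 bp past its start, and the list gives that peak to Arhgef1 (134 tags, fold 8.41). For Vpreb1, a component of the surrogate light chain, the highest-scoring one lay 1142 bp before its start and was closest to Top3b (101 tags, fold 7.35). Cd79a and Vpreb1 had 2 promoter peaks each. With peaks assigned to the closest gene alone, 17 targets were still counted, so not both genes were counted through a neighbour's peak alone. Notch1, a receptor of the T lineage, had 169 tags and a fold of 4.26. Dntt, the terminal transferase gene, had no listed peak.

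A ubiquitin ligase degrades IKZF1 and IKZF3 in human cells under thalidomide-type drugs. It had promoter peaks at 4 of its 5 genes (80.0%, 28.4 to 99.5%), beside 32.8% of all genes. The interval contains that share, and the median score was 152.1. The 4 genes were the adaptor Ddb1, with 134 tags and a fold of 12.43 in a peak 2231 bp before its start that is closest to Dak, the scaffold Cul4a (131 tags, fold 5.12, closest to Pcid2), the RING protein Rbx1 (96 tags, fold 3.86) and the drug receptor Crbn (41 tags, fold 4.09). The peak given for Ddb1 is the higher-scoring of its 2 promoter peaks, and the other covered its start. Cul4b had no listed peak. Of the other B-lineage transcription factor genes, 11 of 18 had a promoter peak (61.1%, 35.7 to 82.7%), with a median score of 125.7 and a median fold of 4.34. Tcf12, Myb, Tcf3 and Bcl11a had the highest scores, at folds of 9.68, 8.70, 6.20 and 6.22, and no peak was listed for Spi1 or Bach2. Foxo1 belongs to this list and to the targets. Expression was not analysed here, so the share of active genes in any of these lists, and its part in the counts, was not tested.

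**Figure D4:**
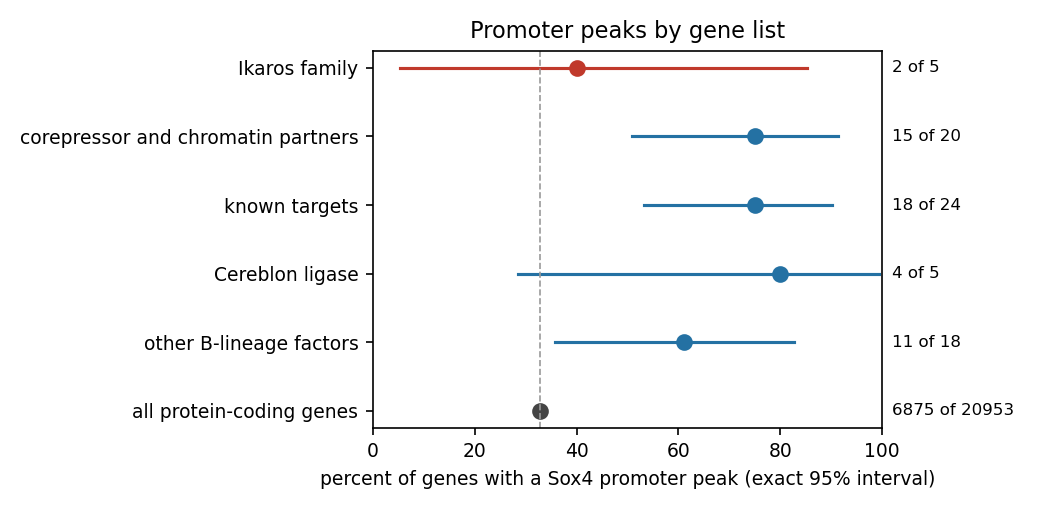
Percent of genes with a Sox4 promoter peak in the Ikaros family, the 4 related gene lists and all protein-coding genes, with exact 95% intervals as lines and the counts at the right. The intervals of the family (5.27 to 85.3%) and of the ligase list (28.4 to 99.5%) contain the share of all genes (dashed line at 32.8%). The partner and target lists both stand at 75.0%. The lists were chosen with earlier results of these data known.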

How the data were processed

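Binding of tagged Sox4 was measured in 1 bioChIP library, with 1 input library of the same cells. The submitters' processing notes name the aligner Bowtie (0.12.8), the peak caller MACS (1.4.2) and build mm9, without parameters. The role of the input in peak calling was not given in the sources used here, and no separate input file was used. The deposited tag number is a count of reads per peak, not scaled to depth or width. The fold, also deposited, is a ratio to the expected background on a linear scale. The deposited score was taken as -10 log10 of the peak's p-value. Distances are the authors', from the peak interval to RefSeq starts and ends.

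Members were matched by listed symbol. For the background, 15228 listed transcripts were matched to the RefSeq gene table (GRCm38.p6), 14992 of them through the accession, 192 through the symbol and 32 through a synonym, which left 12 unmatched. The table served for names, gene order, lengths and chromosomes. The background was the protein-coding genes of chromosomes 1 to 19 and X that have an NM transcript. Intervals are exact (Clopper-Pearson for shares, Poisson for tags), computed with scipy 1.17.1. Motif cores were searched in RefSeq promoter windows, which the table gives for Ikzf1 and Ikzf5. Counting and motif search were tested on simulated data. The members, lists and tests were chosen with earlier results of these data known. Named in the text were all members, the genes listed for their peaks, the 4 highest-scoring genes per list and list genes without a peak. Chd4, Smarca4, Suz12, Foxo1, Irf8, Hdac1, Marcksl1 and the genes that flank members were named after their values were seen. A target gene that this rule names is not reported here.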

Additional observations from a re-analysis of the deposited data

How the results depend on the processing

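The count of 2 members with a promoter peak was also found with TSS windows of 1 and 10 kb, with overlap of the TSS, with peaks assigned to the closest gene alone and with matching by accession or older symbol. It was 1 (Ikzf1) among peaks with a score at or above the median, beside 18.9% of all genes, and 0 among peaks with a fold of 10 or more, beside 1.48%. With the far end of the RefSeq gene as the Ikzf4 start, a setting chosen after seeing the data, it was 3. With that closest-gene assignment, 3 rather than 6 peaks remained for members. At the median score 3 peaks remained. With a fold of 10 or more, 1 peak and 1 member remained, the intronic peak of Ikzf3, both among listed and among closest genes. At that fold, promoter peaks were counted for 4 partner genes, 0 targets, 1 ligase gene and 0 other B-lineage factors, and at the median score for 6 of the 18 B-lineage factors, beside 1.48% and 18.9% of all genes at these settings. Fewer peaks enter at these thresholds. With overlap of the TSS, the counts were 13 partner genes, 12 targets, 4 ligase genes and 9 other B-lineage factors. The share of all genes at that setting was 28.4%. By listed symbol alone, 30.7% of all genes had a promoter peak. No paired analysis was possible because each group had 1 library, and no replicate could be left out.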

Other observations

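Of the 71 distinct genes in the family and the 4 lists, Ikzf3 was the only one with a peak of fold 10 or more that lay in the gene, beyond 5 kb of its start, and had that gene as its closest. Over all protein-coding genes 35 of 20953 (0.167%) had such a peak. This description was chosen after the Ikzf3 values were seen. Listed peaks of that fold beyond 5 kb of the start were also present for Irf8, Tcf3 and Hdac1, each past the end of the gene. Irf8, a transcription factor gene of B and myeloid cells, was the closest gene of a peak 390 bp past its end (128 tags, fold 12.50, score 443.1). For Tcf3, which encodes the E2A proteins, the peak lay 8929 bp past its end and was closest to Mbd3 (280 tags, fold 15.48, score 923.5). It is the same promoter peak that was counted for Mbd3 among the partners. Hdac1, a deacetylase gene of NuRD, had 78 tags and a fold of 3.64 at its own start. A peak 1209 bp past its end held 426 tags at a fold of 21.67. The list classes this peak as a promoter peak, with Marcksl1 as its closest gene.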
